A study of Mus musculus with 8 samples.

Results

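Interferon-inducible GTPases are among the genes that mouse cells switch on most strongly when interferon gamma reaches them. Interferon gamma, made mainly by T-cells and NK cells, binds a receptor of the chains *Ifngr1* and *Ifngr2*. The receptor acts through the kinases Jak1 and Jak2. Promoters of responding genes often hold an element called GAS, or the ISRE, which IRF factors bind. The GTPases fall into 2 families, the guanylate-binding proteins (Gbp genes) and the immunity-related GTPases (*Igtp*, *Iigp1*, *Irgm*, *Tgtp* and *Ifi47*). Their proteins coat and disrupt the vacuoles in which microbes hide, and in an inflamed tissue their transcripts are a usual readout of interferon gamma action.

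These genes were examined in pancreas RNA of 8 female NOD/LtJ (NOD) mice, a strain that develops autoimmune diabetes spontaneously. Each NOD mouse was measured on its own two-color array in red (Cy5), against a single pool of RNA from 8 NOD.B10Sn-H2b/J (NOD.B10) mice in green (Cy3). NOD.B10 mice have the NOD background with the H2 region of another strain and do not become diabetic. All mice were 12 weeks old, none was treated, and no transgene was involved. The pool was 1 RNA sample, so the spread between arrays is that of the NOD mice and of the measurement, and the spread between NOD.B10 mice was not measured. The dyes were not exchanged, so a dye effect at a probe and a strain difference cannot be told apart. The number of arrays limits the precision.

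Members were all non-control probes whose gene symbol on the array was *Gbp1*, *Gbp2*, *Gbp3*, *Gbp4*, *Gbp6*, *Iigp1*, *Igtp*, *Irgm*, *Tgtp* or *Ifi47*, or an older symbol of one of these genes. This gave 14 probes for 11 genes, of 41174 probes and 21597 gene symbols on the array. There are 11 genes for 10 symbols because *Gbp6* had changed meaning. The probe that the array calls *Gbp6* stands for the gene now named *Gbp7*, while the gene now named *Gbp6* appears on the array as *Mpa2l*, and both were kept under their array names. In RefSeq, *Gbp1* is now *Gbp2b*, *Irgm* is *Irgm1* and *Tgtp* is *Tgtp1*, which has the near-identical neighbor *Tgtp2*; the array cannot be taken to separate that pair. None of the members lies on chromosome 17, where the H2 region that distinguishes the strains is located.

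The promoters of the members are shown first, since the results turn on genes that moved together from mouse to mouse. RefSeq promoters (GRCm38.p6) were on hand for 8 of the 11 genes. The GAS letters TTCNNNGAA and the core ISRE letters GAAANNGAAA were searched on both strands in the 250 bases before each start site. The ISRE letters were found in 7 of the 8 and the GAS letters in 3 of the 8 (*Gbp7*, *Igtp* and *Tgtp1*), all of which also held the ISRE. Over all 32851 RefSeq promoters, 2.98% held the ISRE letters, 7.02% the GAS letters and 0.332% both. The last 120 bases before the start site of 6 members are given 5′ to 3′ on the gene's strand, with the matches in capitals.
*Tgtp1*, chr11:48992247-48992366, minus strand: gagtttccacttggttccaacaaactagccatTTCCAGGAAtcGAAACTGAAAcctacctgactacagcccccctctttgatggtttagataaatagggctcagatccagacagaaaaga
*Igtp*, chr11:58199436-58199555, plus strand: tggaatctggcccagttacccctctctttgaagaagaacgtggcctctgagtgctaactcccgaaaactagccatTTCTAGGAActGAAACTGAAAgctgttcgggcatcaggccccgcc
*Irgm1*, chr11:48871421-48871540, minus strand: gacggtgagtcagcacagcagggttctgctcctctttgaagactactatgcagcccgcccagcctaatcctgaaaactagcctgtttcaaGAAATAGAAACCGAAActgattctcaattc
*Gbp2*, chr3:142620543-142620662, plus strand: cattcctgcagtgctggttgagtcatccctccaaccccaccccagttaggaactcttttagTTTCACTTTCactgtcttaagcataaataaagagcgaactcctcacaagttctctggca
*Gbp7*, chr3:142530216-142530335, plus strand: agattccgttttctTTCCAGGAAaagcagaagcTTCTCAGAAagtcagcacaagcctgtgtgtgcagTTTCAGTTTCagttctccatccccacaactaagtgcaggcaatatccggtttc
*Ifi47*, chr11:49076467-49076586, plus strand: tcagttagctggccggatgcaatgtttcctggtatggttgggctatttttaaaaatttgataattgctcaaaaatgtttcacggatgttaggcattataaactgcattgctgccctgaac
In *Tgtp1* and *Igtp* the GAS match stands 2 bases before the ISRE match. In *Irgm1* a pair of overlapping ISRE matches was found, and *Gbp2* and *Gbp7* have the ISRE letters on the opposite strand. *Ifi47* held neither set of letters in its 250 bases. A match describes the sequence only and is no evidence of binding.

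Values are log2 ratios of the NOD mouse over the pool, where 1 is 2-fold higher in NOD, and processed signals, which are intensities after background subtraction and dye normalization. Red signals were weak in this series. A signal was well above background in 21.6% to 35.3% of spots in red and in 57.6% to 60.7% in green. Where a signal did not rise above the noise, the software put in a stand-in value, and some log ratios were then set to 0. Arrays 1 to 4 formed slide 1 and arrays 5 to 8 slide 2, and the grid of arrays 5, 6 and 7 was not rated good by the software. On the mm8 build of the array, *Gbp1*, *Gbp2*, *Gbp3* and *Gbp6* lie on chromosome 3, *Gbp4* and *Mpa2l* on chromosome 5, and *Igtp*, *Irgm*, *Tgtp* and *Ifi47* on chromosome 11. Acinar markers were well above background in red on all 8 arrays for 12 of 12 genes measured, as the labelled tissue requires.

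At an adjusted p under 0.05, 4 of 5 tested immunity-related GTPases and 1 of 5 tested guanylate-binding proteins were higher in NOD pancreas, and the mice differed widely. The difference between the families was not tested. Their signals were unlike, with red well above background on at least 4 arrays for 5 of 5 immunity-related GTPases and 2 of 6 guanylate-binding proteins. The mean log2 ratio was above 0 for 10 of 10 tested members, compared to 36.6% of the 18505 tested genes. It was also above 0 for *Gbp1*, which did not pass the signal filter. Red was well above background on at most 1 array for *Gbp4*, *Gbp6* and *Mpa2l*. The median of the means was 0.87 over the tested members and -0.08 over all tested genes, and 0.75 over all 11 members. At the study's thresholds (2-fold and an adjusted p below 0.01) none of the 10 members that passed the signal filter was called higher by limma, where 0.389% of tested genes were. At an unadjusted p under 0.05 and 2-fold, 4 members were higher, compared to 0.832% of tested genes. At an adjusted p under 0.05 without a fold limit, 5 members were higher (*Tgtp*, *Iigp1*, *Ifi47*, *Igtp* and *Gbp2*), and none was lower. This compares to 6.97% of tested genes, or 5.5% of tested probes. The plain one-sample statistic without limma's shared spread gave 1 member, *Tgtp*, and 4.71% of probes. The count of 5 also fell to 1 without mouse 1, 2, 3, 4, 6 or 7, was 5 without mouse 5 and 6 without mouse 8, where 4.15% to 5.71% of probes were higher. On slide 1 alone it was 5 (5.73% of probes), on slide 2 alone it was 0 (0.4%), and on the 5 arrays with a good grid it was 1 (3.39%). With normexp background correction and loess normalization it was 3 (*Gbp2*, *Irgm* and *Ifi47*), at means between 0.26 and 0.42 and a background of 3.41% of probes, and with median-centered signals it was 8, against a background of 29.8% of probes.

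**Figure D1:**
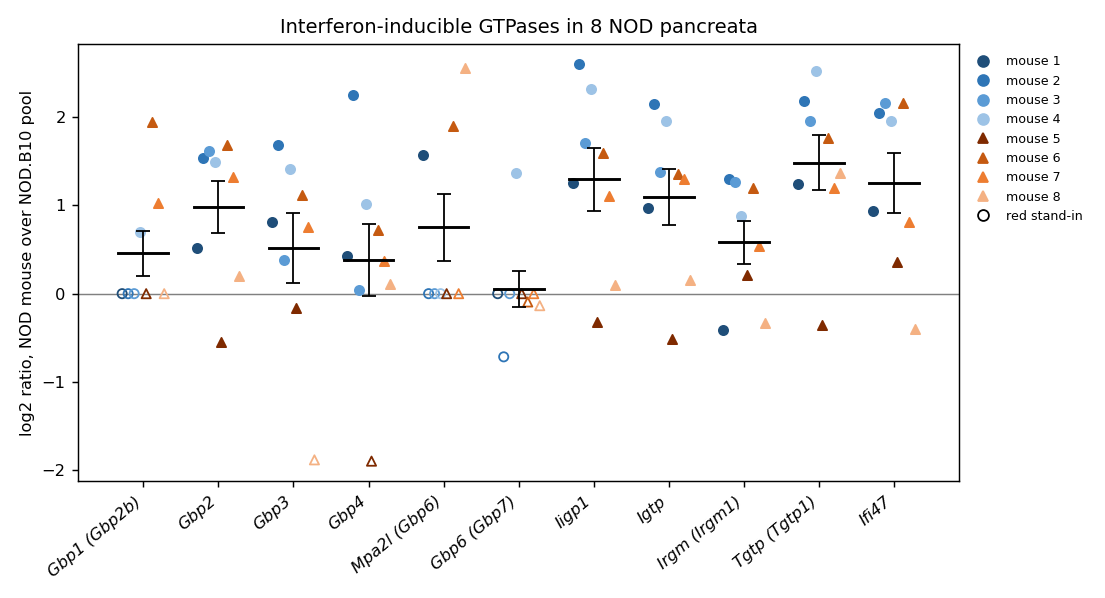
Log2 ratio of each NOD mouse over the NOD.B10 pool for the 11 genes, 1 probe each, with current symbols in brackets. Circles are mice of slide 1 and triangles mice of slide 2, open symbols are red stand-in values, and bars are the mean ± SE (n = 8). Mouse 5 lies at or below 0.35 for all genes, while mice 2, 3, 4 and 6 lie between 0.88 and 2.60 in *Gbp2*, *Iigp1*, *Igtp*, *Irgm*, *Tgtp* and *Ifi47*.

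*Tgtp*, an immunity-related GTPase first found as a T-cell-specific GTPase, showed the largest mean difference among the members in the deposited log ratios. With median-centered signals its mean was 1.08, below those of *Mpa2l* (2.18) and *Ifi47* (1.95). With normexp and loess it lay below that of *Igtp* (0.71). The deposited log2 ratio of *Tgtp* ranged from -0.36 in mouse 5 to 2.52 in mouse 4, with a median of 1.56. The red signal was 122 to 1018 and the green signal 126 to 231, and red exceeded the highest green signal in 7 of 8 mice. The mean was 1.48 ± 0.88 (SD, n = 8), or 2.79-fold, with an adjusted p of 0.0135 by limma. In the exact sign-flip test of the 8 mice (two-sided, smallest possible p = 0.00781), p was 0.0156. Without mouse 5 the mean was 1.75 and the gene passed both of the study's thresholds (adjusted p = 0.00312 by limma). Without each other mouse the adjusted p by limma was 0.0259 to 0.0376. With normexp correction and loess the mean was 0.38 and the gene did not pass (adjusted p = 0.0680 by limma). The probe lies at chr11:48830094-48830153 (mm8, minus strand). A second *Tgtp* probe, at chr11:48829508-48829567, gave a mean of -0.01 ± 0.68 (SD, n = 8), with a red signal well above background on 0 arrays and a highest red signal of 71.7. The 2 probes of this gene therefore differ, and the dimmer one holds no red signal clear of the noise.

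*Iigp1*, which attacks the vacuoles of intracellular parasites, ranged from -0.33 in mouse 5 through a median of 1.42 to 2.60 in mouse 2 (log2 ratio). Its mean was 1.29 ± 1.01 (SD, n = 8), or 2.45-fold (adjusted p = 0.0346 by limma, exact sign-flip p = 0.0234). Red signals spanned 209 to 1787, an 8-mouse CV of 63.4%, and green signals 218 to 355, a CV of 14.1%. Since the green RNA was the same on every array, its CV is that of the measurement in green alone. The red signal of mouse 5 lay below the lowest green signal, that of mouse 8 within the green range, and those of the other 6 mice above it. The gene did not pass at 0.05 with median-centered signals (mean 0.71, adjusted p = 0.114 by limma) or with normexp and loess (mean 0.43, adjusted p = 0.147 by limma).

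*Ifi47*, a GTPase that is strongly induced by interferon gamma, ranged from -0.40 in mouse 8 to 2.16 in mouse 3, with a median of 1.45. The mean was 1.25 ± 0.97 (SD, n = 8), or 2.38-fold (adjusted p = 0.0344 by limma, exact sign-flip p = 0.0234). It was the dimmest of the genes that passed at 0.05, with red signals of 62.8 to 323 and green signals of 44.6 to 83.4. Its 4 highest mice were mice 2, 3, 4 and 6.

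*Igtp*, a regulator of the effector GTPases on internal membranes, ranged from -0.52 in mouse 5 to 2.15 in mouse 2, with a median of 1.33. Red signals were 206 to 2032 and green signals 295 to 608. The mean was 1.09 ± 0.89 (SD, n = 8), or 2.13-fold (adjusted p = 0.0401 by limma, exact sign-flip p = 0.0234), and 7 of 8 mice were above the pool. With normexp and loess the mean was 0.71 and the gene did not pass (adjusted p = 0.0503 by limma). *Igtp* lies at chr11:58023620-58023679 (mm8, plus strand), and the probe was well above background in red on 7 arrays.

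*Irgm*, the remaining regulator, had 3 probes. At the brightest, the log2 ratio ranged from -0.41 in mouse 1 to 1.29 in mouse 2, with a median of 0.71, and the mean was 0.58 ± 0.70 (SD, n = 8). This did not pass (adjusted p = 0.126 by limma, exact sign-flip p = 0.0625). A second probe of similar brightness gave a mean of 0.23 ± 0.61 (SD, n = 8), from -1.01 in mouse 5 to 0.89 in mouse 4. The third, on a separate cDNA, had red stand-in values on all 8 arrays and a log ratio set to 0 on each, so it carries no measurement. Mouse 1, low at the brightest probe, was at 0.06 at the second.

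**Figure D2:**
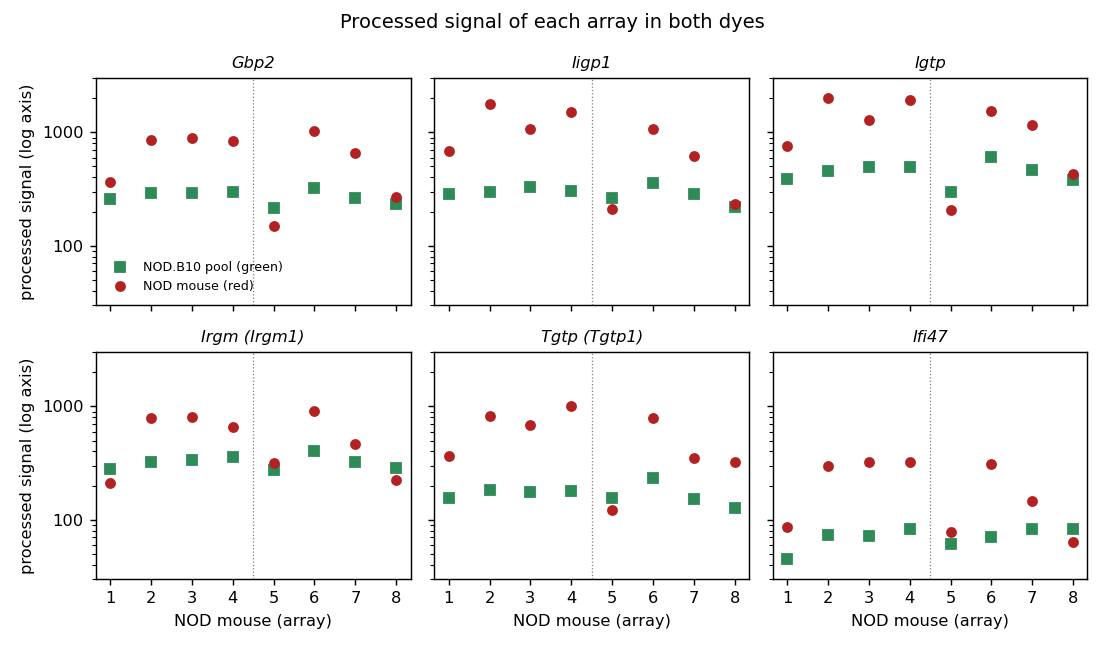
Processed signal (log axis) of the NOD mouse in red and of the NOD.B10 pool in green on each of the 8 arrays, for 6 genes. The green signals stay within a CV of 13.1% to 20.9% while the red signals vary with a CV of 51.1% to 63.4%. Red is below green for mouse 5 in 4 of the 6 panels and for mouse 8 in 2. The dotted line parts slide 1 from slide 2.

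*Gbp2*, an interferon-induced GTPase that is recruited to pathogen vacuoles, was the guanylate-binding protein with the clearest difference. It ranged from -0.54 in mouse 5 to 1.68 in mouse 6, with a median of 1.41. The mean was 0.98 ± 0.82 (SD, n = 8), or 1.97-fold (adjusted p = 0.0443 by limma, exact sign-flip p = 0.0313). Its red signals were 148 to 1028 and its green signals 216 to 321, with red above the highest green signal in 6 of 8 mice. The probe lies at chr3:142575141-142575200 (mm8, plus strand).

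The other guanylate-binding proteins did not pass with all 8 mice. *Gbp3* ranged from -1.88 in mouse 8, where red was a stand-in value, to 1.68 in mouse 2, with a mean of 0.51 ± 1.13 (SD, n = 8). Its mean was 1.07 on slide 1 and -0.04 on slide 2, and without mouse 8 it was 0.86 (adjusted p = 0.0429 by limma). *Gbp4* ranged from -1.89 in mouse 5, again a stand-in value, to 2.24 in mouse 2, with a mean of 0.38 ± 1.16 (SD, n = 8). Although 7 of 8 mice were above the pool, red signal of *Gbp4* was well above background on 1 array. Its mean was 0.11 without mouse 2 and 0.70 without mouse 5, and with median-centered signals it was 1.46 (adjusted p = 0.000175 by limma). With all 8 mice, adjusted p by limma was 0.388 for *Gbp3* and 0.522 for *Gbp4*.

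*Gbp1*, *Gbp6* and *Mpa2l* were not measurable in NOD pancreas at this signal, since red was well above background on 0 arrays for each. *Mpa2l* had 5 log ratios of 0 and 3 between 1.57 and 2.55 (mean 0.75, adjusted p = 0.188 by limma). *Gbp1* had 5 log ratios of 0, a highest ratio of 1.94 in mouse 6 and a highest red signal of 32.1, and did not pass the signal filter. *Gbp6* had red stand-in values on 7 arrays and a mean of 0.05, with 1.36 in mouse 4 as its highest value, and its mean turned to -0.01 under normexp correction. With median-centered signals the means were 0.97 for *Gbp6* (adjusted p = 0.00850 by limma) and 2.18 for *Mpa2l* (adjusted p = 8.66e-05 by limma), and with normexp *Mpa2l* had 0.04. For these 3 genes the means rest largely on stand-in values.

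The highest mice were largely the same among the well-measured members. For 6 of the 7 members with red well above background on at least 5 arrays, the 4 mice with the highest log2 ratio were the same, mice 2, 3, 4 and 6. *Gbp3* was the exception, with mouse 1 in place of mouse 3. Among all 8764 tested genes with such signal, 2.60% had those 4 mice on top. These were also the 4 arrays with the largest share of red signals well above background, 32.5% to 35.3% against 21.6% to 30.1% on the other 4, and the part of this in the order of the mice was not tested. The order within these 4 mice and below them differed between members. Mouse 5 was the lowest mouse for 5 of the 11 members and was above the pool for 2. Mouse 2 was the highest for 5 members. The median over members was -0.16 in mouse 5 and 0.10 in mouse 8, and 0.81 to 1.68 in the other 6 mice. With median-centered signals the 3 lowest were mice 5 (0.76), 1 (0.94) and 8 (1.03). With normexp and loess mouse 8 was the lowest (-0.04), and mice 5 and 1 had -0.00165 and 0.0131. Members were read from the same labeled RNA on each array, so they share the errors of each array.

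By slide, the members were higher on slide 1 for 9 of 11 genes, without a significant difference. The largest gap was that of *Iigp1*, with a mean of 1.97 on slide 1 and 0.62 on slide 2 (exact 4 against 4 permutation p = 0.0571, where 0.0286 is the smallest possible). At an adjusted p under 0.05, 0 members differed between slides by limma, compared to 3.26% of probes. *Tgtp* had means of 1.97 and 0.99, *Ifi47* of 1.77 and 0.73, *Igtp* of 1.61 and 0.57 and *Gbp2* of 1.29 and 0.66 on slides 1 and 2. All 5 genes that passed at 0.05 had a mean above 0 on each slide, and on slide 2 mouse 6 resembled the mice of slide 1.

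Other GTPases of these and related families formed a list of 9 genes measured and 8 tested. At an adjusted p under 0.05, 2 were higher and 0 lower, where 6.97% of tested genes were higher and 14.3% lower. The list held *Irgc1* and *Irgq*, with means of 0.15 and 0.12, and whether these respond to interferon was not tested. *Irgm2*, a close relative of *Igtp* listed on the array as *Iigp2*, passed the study's thresholds, with a mean of 1.40 ± 0.70 (SD, n = 8) and an adjusted p of 0.00694 by limma. It ranged from -0.12 in mouse 5 to 2.23 in mouse 2 and was well above background in red on all 8 arrays. With normexp and loess its mean was 0.53 (adjusted p = 0.0199 by limma), short of both thresholds. *Gbp8* had a mean of 0.98 (adjusted p = 0.0498 by limma), and 0.18 with normexp and loess, where it did not pass (adjusted p = 0.0602 by limma). *Gbp5*, which takes part in inflammasome assembly, had a mean of 0.39 ± 0.99 (SD, n = 8; adjusted p = 0.460 by limma). The Mx genes, which block viruses and respond mainly to type I interferon, were not measurable, with red well above background on 0 arrays and means of -0.05 for *Mx1* and 0.10 for *Mx2*.

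Genes upstream of the GTPases showed no uniform direction. In the list of interferon gamma ligand, receptor and signaling genes, 1 of 20 was higher and 3 were lower at an adjusted p under 0.05, compared to 6.97% and 14.3% of tested genes, and the median of the list was 0.03. *Ifng* itself had red well above background on 0 arrays. Its log2 ratio ranged from 0 in mice 3, 5 and 8 to 2.12 in mouse 4 (mean 0.66, adjusted p = 0.123 by limma). With median-centered signals its mean was 2.39 (adjusted p = 2.88e-06 by limma), and with normexp and loess 0.10 (adjusted p = 0.0553 by limma). *Tbx21* encodes the T-bet transcription factor, which drives interferon gamma production in T-cells and NK cells. It was the 1 gene counted as higher above, with a mean of 1.83 ± 0.34 (SD, n = 8; adjusted p = 0.000305 by limma). It was above the pool in 8 of 8 mice, from 1.38 to 2.39, with its lowest value in mouse 5, where *Tgtp* and *Igtp* were below the pool.

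The receptor and kinase genes had mean log2 ratios between -0.33 and 0.27 at their brightest probes. *Ifngr1* had a mean of -0.31 ± 0.22 (SD, n = 8; adjusted p = 0.0290 by limma), and *Ifngr2* of 0.27 (adjusted p = 0.104 by limma). *Jak1* had -0.28 at its brightest probe (adjusted p = 0.0108 by limma) and -0.17 at another on the same strand (adjusted p = 0.285 by limma). A probe listed under *Jak1* on the opposite strand gave 0.26 (adjusted p = 0.0285 by limma). *Jak2* had -0.33 (adjusted p = 0.375 by limma). *Il18*, a cytokine that promotes interferon gamma release, was lower with a mean of -0.49 (adjusted p = 0.0317 by limma), and its red signal was well above background on 0 arrays. *Ifngr1* and *Il18* did not pass with median-centered signals (adjusted p = 0.542 and 0.199 by limma) or with normexp and loess (0.404 and 0.774). Over the list of ligand, receptor and signaling genes, 6 were higher and 3 lower with median-centered signals, where 29.8% of all probes were higher. With normexp and loess 1 was higher and 2 were lower, where 3.41% of probes were higher.

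Of the factors induced downstream, *Irf1* had a mean of 0.21, *Irf8* of 0.86 and *Socs1*, the feedback inhibitor of the Jak kinases, of 0.95. None passed at its brightest probe, with adjusted p values by limma of 0.402, 0.149 and 0.0662. Mouse 5 was the lowest mouse for all 3, with log2 ratios of -0.60, -1.57 and -0.23. A second probe had a mean below 0 for *Irf1* (-0.60, adjusted p = 0.164 by limma) and for *Irf8* (-0.51, adjusted p = 0.0393 by limma), with red well above background on 0 arrays at each.

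**Figure D3:**
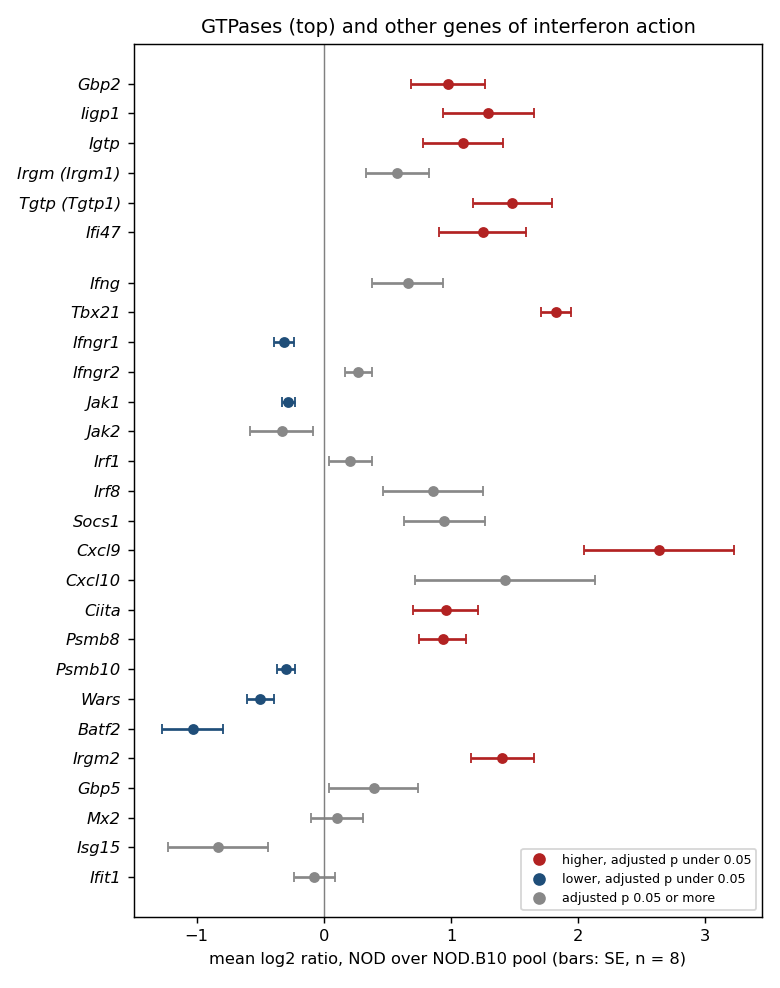
Mean log2 ratio with SE (n = 8) of 6 GTPases and of other genes of interferon action, 1 probe each. The 6 had red well above background on at least 5 arrays, and *Gbp3*, with 5 such arrays, is not shown. Red and blue mark genes higher or lower at an adjusted p under 0.05 (limma). *Cxcl9* has the largest mean, 2.64, while *Ifngr1* and *Jak1* lie at -0.31 and -0.28.

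Among interferon gamma targets outside the GTPases, 3 of 27 tested genes were higher and 3 were lower at an adjusted p under 0.05, compared to 6.97% and 14.3% of all tested genes. *Cxcl9*, a chemokine that draws activated T-cells, had the largest mean, 2.64 ± 1.66 (SD, n = 8; adjusted p = 0.0167 by limma). It was set to 0 in mice 5 and 8, which had red stand-in values, and was between 2.87 and 4.07 in the other 6 mice. *Cxcl10*, its relative, had log2 ratios of 3.05 to 4.27 in mice 2, 3 and 4 and of exactly 0 in the other 5. The software had replaced red on 5 arrays and green on 6, and red was well above background on 1. The zeros therefore do not rank the mice, and processed red was 120 in mouse 6 and 79.3 in mouse 3. The mean was 1.43 (adjusted p = 0.182 by limma). It was 3.36 with median-centered signals (adjusted p = 4.33e-07 by limma) and 0.11 with normexp and loess (adjusted p = 0.149 by limma). *Ciita*, the master regulator of MHC class II genes, had a mean of 0.96 (adjusted p = 0.0300 by limma). *Psmb8*, an immunoproteasome subunit, had 0.94 (adjusted p = 0.0110 by limma), but it lies on chromosome 17 in the region that differs between the strains. The lower genes were *Psmb10*, another immunoproteasome subunit (-0.30), *Wars*, a tRNA synthetase (-0.50), and *Batf2* (-1.03), with adjusted p values by limma of 0.0243, 0.0149 and 0.0194. Of the 6 genes, *Psmb8*, *Psmb10* and *Batf2* did not pass with median-centered signals or with normexp and loess. *Psmb10* had -0.45 with the former (adjusted p = 0.0927 by limma) and -0.06 with the latter, and *Batf2* had -0.54 (adjusted p = 0.0855 by limma) and -0.03. Over the whole list, 10 genes were higher and 3 lower with median-centered signals, where 29.8% of all probes were higher. With normexp and loess 3 were higher and 2 lower, where 3.41% of probes were higher.

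Type I interferon targets were read as a further list. Of 24 tested genes, 0 passed an adjusted p of 0.05 by limma or by the plain one-sample statistic, and 4 had an unadjusted p under 0.05 by limma. The mean was below 0 for 19 of the 24, compared to 58.7% of tested genes, and the median was -0.25. Red was well above background on 0 arrays for 11 of the 24. With median-centered signals 5 were higher and 4 lower, among them *Ifit2*, whose mean turned from -0.54 to 0.94 (adjusted p = 0.000609 by limma), and *Oas3* (0.95, adjusted p = 0.00343 by limma). With normexp and loess 0 were higher and 1 was lower. *Isg15*, a ubiquitin-like protein, had a mean of -0.83 ± 1.11 (SD, n = 8; adjusted p = 0.163 by limma), with red well above background on 1 array. *Ifit1*, a sensor of viral RNA, had a mean of -0.08 ± 0.46 (SD, n = 8). Whether this list differs from the GTPases was not tested.

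Markers of leukocytes were read on the same arrays, against 6.97% of tested genes higher and 14.3% lower. Of 16 tested T-cell and NK cell markers, 4 were higher (*Lck*, *Cd3d*, *Cd5* and *Cd3e*) and 0 lower at an adjusted p under 0.05, and the summed signal of the 18 measured was 6915 to 21199 in red and 5480 to 12123 in green. *Lck* had a mean of 2.30 and *Cd3e* of 0.61. *Cd5* did not pass with median-centered signals, and *Cd5* and *Cd3d* did not pass with normexp and loess. Over the T-cell and NK cell list, 9 were higher and 3 lower with median-centered signals, where 29.8% of all probes were higher. With normexp and loess 2 were higher and 0 lower, where 3.41% of probes were higher. The NK cell marker *Ncr1* and the granule genes *Gzmb* and *Prf1* were well above background in red on 0 arrays. Of 12 myeloid markers, *Itgax* (1.56) and *Mpeg1* (0.80) were higher, and the summed signal was 14694 to 38936 in red and 17943 to 27646 in green. Red was well above background on 1 array at the *Itgax* probe and on 0 at a second, which gave -0.78 (adjusted p = 0.0200 by limma). With normexp and loess *Itgax* had 0.05 and did not pass (adjusted p = 0.371 by limma). Of 10 B-cell markers, 0 passed by limma or by the plain statistic (3 at an unadjusted p under 0.05), 7 were higher with median-centered signals and 1 with normexp and loess, and 7 were well above background in red on 0 arrays, *Cd79a* among them. The sums were 1574 to 4763 in red and 1706 to 2350 in green.

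In mouse 5 the summed log2 ratio was -0.17 for B-cell markers and -0.40 for myeloid markers, in each case the lowest of the 8 mice, and 0.17 for T-cell and NK cell markers, the second lowest. The other mice did not all follow the GTPases. Mouse 1 had the lowest T-cell and NK cell ratio (0.15) and a B-cell ratio of -0.08, at a GTPase median of 0.81. Mouse 8 had a B-cell ratio of 0.41, at a GTPase median of 0.10. In bulk tissue more leukocytes and more transcript per cell cannot be told apart. The part of these cells in the GTPase values was not tested.

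The remaining lists are read against the same 6.97% of tested genes higher and 14.3% lower. Lymph node stroma had 1 gene higher (*Ccl19*, a T-cell zone chemokine, 1.32) and 1 lower (*Chst4*, -0.84) of 8. Of 12 acinar markers 4 were higher, by 0.18 to 0.57 (*Rnase1*, *Pnlip*, *Ctrb1* and *Pnliprp1*). Of 12 islet endocrine markers *Pcsk2* (-0.48) and *Chga* (-0.64) were lower, and of 10 endothelial markers 6 were lower, between -0.55 and -0.27 (*Pecam1*, *Eng*, *Cdh5*, *Kdr*, *Emcn* and *Robo4*). Of the 12 acinar markers, 6 were higher with median-centered signals and 10 with normexp and loess, where 29.8% and 3.41% of all probes were higher. The 4 acinar genes passed with both, *Ctrb1* with the highest mean with normexp (2.01). *Chst4*, *Pcsk2*, *Chga*, *Pecam1*, *Eng* and *Robo4* passed with neither. *Cdh5* and *Kdr* did not pass with normexp and loess. The summed islet signal was lowest in mice 1 and 2 and not in mouse 5. The ratio of sums was lowest in mouse 5 for lymph node stroma (-0.19), and not for acinar, islet or endothelial markers.

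**Figure D4:**
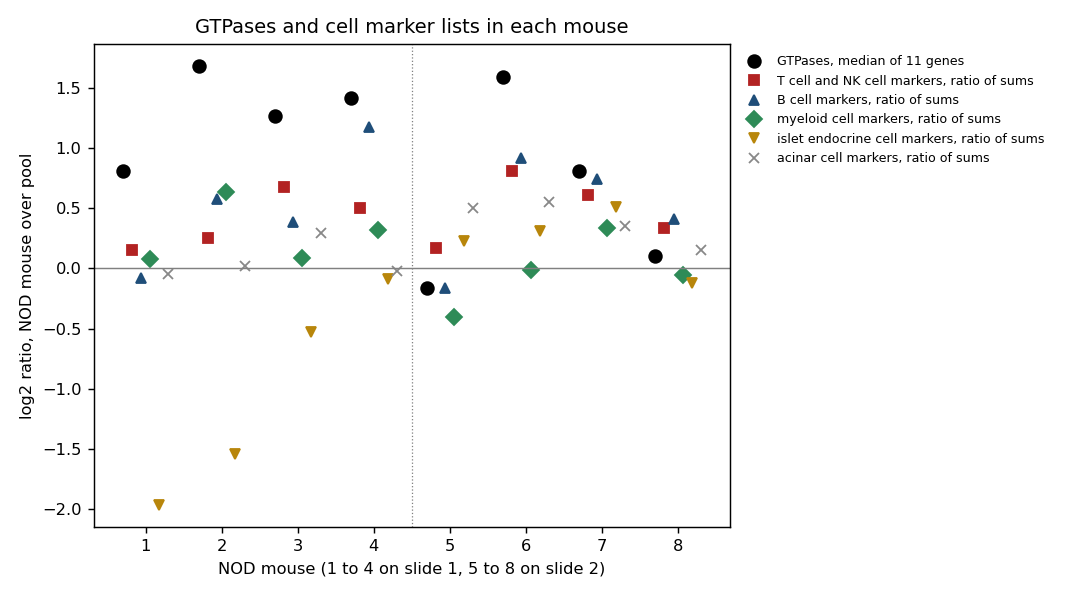
Median log2 ratio of the 11 GTPase genes in each NOD mouse, with the log2 ratio of summed red over summed green signal of 5 cell marker lists. Mouse 5 has the lowest GTPase median (-0.16) and the lowest myeloid (-0.40) and B-cell (-0.17) ratio, while the islet ratio is lowest in mouse 1 (-1.96). The T-cell and NK cell ratio is also lowest in mouse 1 (0.15).

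The genes whose pattern over the 8 mice was most like that of the GTPases were sought among 6190 genes with red well above background on all arrays. Profiles were centered on the mean of each slide and compared with the mean of the 5 members that were well above background in red on at least 6 arrays. The highest Pearson r were those of *Tegt* (0.991), *Pkd2* (0.988), *Rexo2* (0.984), *Ly6e* (0.976) and *Mvp* (0.975). Without the centering, r was 0.94 for *Pkd2* and between 0.04 and 0.37 for the other 4, so the likeness of those 4 is within slides. *Ly6e*, an interferon-inducible surface protein, had a mean of 0.56 (adjusted p = 0.0465 by limma), and the means of the other 4 lay between -0.11 and 0.04. The points share their arrays, and with 8 mice and 6190 candidates these r are a description alone.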

How the data were processed

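The authors scanned the arrays with Agilent Feature Extraction (version 10.7.3.1), and probe positions are those of mm8 in the file headers. The deposited log10 values are ratios of red to green per spot, made by the authors after background subtraction and dye normalization. The deposited processed and background-subtracted signals are intensities of each dye, made by the authors in the same steps, with flags for noise and spot quality. From these, log10 ratios were converted to log2 and averaged over the spots of each probe. The test kept probes that had a symbol and reached 25 in the red processed signal on 4 or more arrays (28105 probes, 18505 genes). Each was compared with 0 in limma (version 3.58.1 in R 4.3.3), with Benjamini-Hochberg adjustment over all of them. A call needs 2-fold and an adjusted p below 0.01. A gene is reported by its brightest tested probe in the mean of both dyes. Single probes were tested with all sign flips of the 8 mice, and slides with all splits of 4 against 4. Red-noise alternatives were normexp correction (offset 50) with loess, median-centered background-subtracted signals, the ratio of processed signals and the same with 25 added.

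The members, gene lists, tests and alternatives were chosen with earlier results of these data known. The named genes are all members, a set of interferon genes, list genes at an adjusted p under 0.05, and the 5 genes most like the members. RefSeq symbols were matched by transcript, and no position was converted between builds. The fit was tested on simulated data. Some genes of the lists are not reported here by name. The study's filters on human homologues were not applied. Tables, exact tests and plots used Python 3.11.15 (numpy 2.4.6, pandas 2.3.3, scipy 1.17.1, matplotlib 3.10.9).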

Additional observations from a re-analysis of the deposited data

Results flagged for a closer look

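The gap between 1 mouse and the nearest other, divided by the range of all 8, exceeded Dixon's 95% critical value for 8 samples at 2 of the 13 member probes with any spread. For *Tgtp* (brighter probe) the gap of mouse 5 below the other 7 was 0.54 of the range. For *Gbp6* the gap of mouse 4 above the others was 0.656 of the range, at a probe with red stand-in values on 7 arrays. Chance flags about 1 in 20 groups. The lowest mouse of the second brightest *Irgm* probe, again mouse 5, came to 0.508 and was not past the critical value.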

How the results depend on the processing

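The weak red signal and the number of arrays limit these results. The mean log2 ratio stayed above 0 for the 10 tested members under all alternatives except for *Gbp3* (-0.043), *Gbp4* (-0.17) and *Gbp6* (-0.057) on slide 2 alone, and *Gbp6* under normexp with loess (-0.010) and without mouse 4 (-0.13; range -0.13 to 0.16 over the mice left out). The second *Tgtp* probe gave -0.0073, and the third *Irgm* probe, without red signal, gave 0. The median over tested members was 0.87 and ranged from 0.32 (normexp with loess) to 1.18 (slide 1 alone). No paired analysis was possible because the 8 arrays form 1 group, in which the numbers only name mice.

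The number of members called higher at the study's thresholds, 0 as reported, was 1 gene and 1 probe with red well above background on at least 4 arrays, with array weights, and with slide as a covariate. It was 4 genes and 6 probes with median-centered signals, 2 genes and 3 probes with the ratio of processed signals, 4 genes and 5 probes with 25 added, and 4 genes and 4 probes at an adjusted p of 0.05. Leaving out each mouse gave 0 to 1 genes and 0 to 1 probes.

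The number of members higher at an adjusted p under 0.05, 5 as reported, was 3 without the signal filter (4.07% of probes), 1 with the plain statistic, 8 with median-centered signals, 3 with normexp and loess, 0 on slide 2 alone, 1 on the arrays with a good grid, and 1 to 6 with each mouse left out. That count and the sets of arrays by slide and grid were added after the data were seen.

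Of all tested probes 87 were called higher and 397 lower. These were 5976 and 1272 with median-centered signals, 44 and 16 with normexp and loess, 3470 and 690 with the ratio of processed signals, 749 and 140 with 25 added, and 91 and 42 with red well above background on at least 4 arrays. The number higher was 0 on slide 1 alone, 2 on slide 2 alone, 4 on the arrays with a good grid, 158 at an adjusted p of 0.05, 301 at a fold of 1.5, and 54 to 80 with each mouse left out. Median-centered signals put the median of all probes at 0.09, against -0.09 as reported. Members that differed between slides at an adjusted p under 0.05 were 0, and 1 with median-centered signals. The cause of these differences was not tested.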
